A study of Homo sapiens with 9 samples.

Results

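The 35 genes described here act in the repair of DNA crosslinks and in homologous recombination, and they are 35 of the 60617 genes in the count files of PC-3 cells, an established human prostate cancer cell line. They were taken by name, and the rule has no threshold on a measured value, but the list was drawn up with earlier results of these data known. They are the Fanconi anaemia genes FANCA, FANCB, FANCC, FANCD2, FANCE, FANCF, FANCG, FANCI, FANCL and FANCM, the genes BRCA1, BRCA2, BRIP1, PALB2 and BARD1, the strand invasion genes RAD51C, RAD51D, XRCC2, XRCC3, RAD54L and RAD54B, and EXO1, BLM, MRE11, RAD50, NBN, RPA1, RPA2, ATM, ATR, CHEK1, CHEK2, PARP1, XRCC1 and SPRTN. The 9 RNA-seq libraries were 3 controls (vehicle), 3 from decitabine-treated cells (1 µM) and 3 from cells that received the combination treatment of decitabine (1 µM) and S-adenosylmethionine (SAM, 200 µM), all after 5 days. All groups were of the same cell line without a change of genotype. The labels give replicate numbers but do not say whether replicates were separate cultures, so p-values measure the spread between these libraries, which may be technical.

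A crosslink that joins both DNA strands blocks replication. The Fanconi anaemia core complex then attaches ubiquitin to the FANCD2-FANCI clamp, nucleases unhook the lesion, and with the help of BRCA2 the break is repaired by homologous recombination from the sister chromatid. Decitabine is a cytidine analogue that is built into new DNA and traps the DNA methyltransferase DNMT1 on it as a DNA-protein adduct, a lesion that the protease SPRTN can degrade. PARP1 senses strand breaks and XRCC1 is the scaffold of their repair. SAM is the methyl donor of DNA methylation. Many repair genes of these pathways are transcribed mainly in the S and G2 phases of the cell cycle.

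The known state of the cell line was checked first. The epithelial genes KRT8, KRT18, KRT19 and EPCAM and the mesenchymal gene VIM had counts in all libraries, whereas KLK3, the gene of prostate-specific antigen, had none. Levels are given as CPM (counts per 1000000 after TMM scaling). Of 6 prostate markers, KLK3 among them, 2 passed the filter, and both were called upregulated with each treatment. KLK2, 1 of these, had no counts in the controls and 0.484 to 1.02 CPM in treated libraries. Totals lay between 21934307 and 22489684 estimated counts per library. A gene was called at an adjusted p-value under 0.05 in edgeR's quasi-likelihood test, with Benjamini-Hochberg adjustment over the 18532 genes tested. All 35 repair genes passed the filter on low counts and were tested. In bulk samples, fewer cells with a transcript and less of it in each cell cannot be told apart.

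Most of the repair genes were lower in decitabine-treated cells than in controls. Of the 35, 23 were downregulated, 3 were upregulated (BRCA2, RAD50 and SPRTN) and 9 were not called. Among all genes tested, 32.5% were downregulated and 36.3% upregulated, against 65.7% and 8.57% of the repair genes. Their median log2 fold change was -0.39, beside 0.03 for all genes tested. With the combination treatment, 24 were downregulated and 4 upregulated (RAD51C in addition), where 31.3% and 35.9% of all genes tested were called in these directions. The median was -0.48, beside 0.05 for all genes. Both treatments are compared with the same 3 controls, so these counts are not independent of each other.

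The scaling moved these counts. When libraries were scaled by their size alone (size scaling below), the median of all genes tested rose to 0.28 in decitabine and 0.27 in combination libraries against controls. On that scale 47.7% and 46.9% of all genes tested were upregulated, and 20.2% and 20.8% downregulated. Of the repair genes, 14 were then downregulated in decitabine-treated cells and 19 in cells of the combination treatment, and 3 and 6 were upregulated. The calls of PALB2, XRCC3, MRE11, EXO1, RPA2, ATM, CHEK1, PARP1 and NBN in the first comparison and of FANCB, FANCE, RPA2, PARP1 and MRE11 in the second were lost, and FANCM (0.37) and BARD1 (0.26) were called upregulated in the second. The medians of the 35 genes stayed below 0, at -0.14 and -0.25. Relative to the median of all genes, they lay at -0.42 and -0.52 under both scalings. A change of scaling shifts all genes of a comparison nearly alike, so this difference could hardly move and is no check on the scaling.

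**Figure D1:**
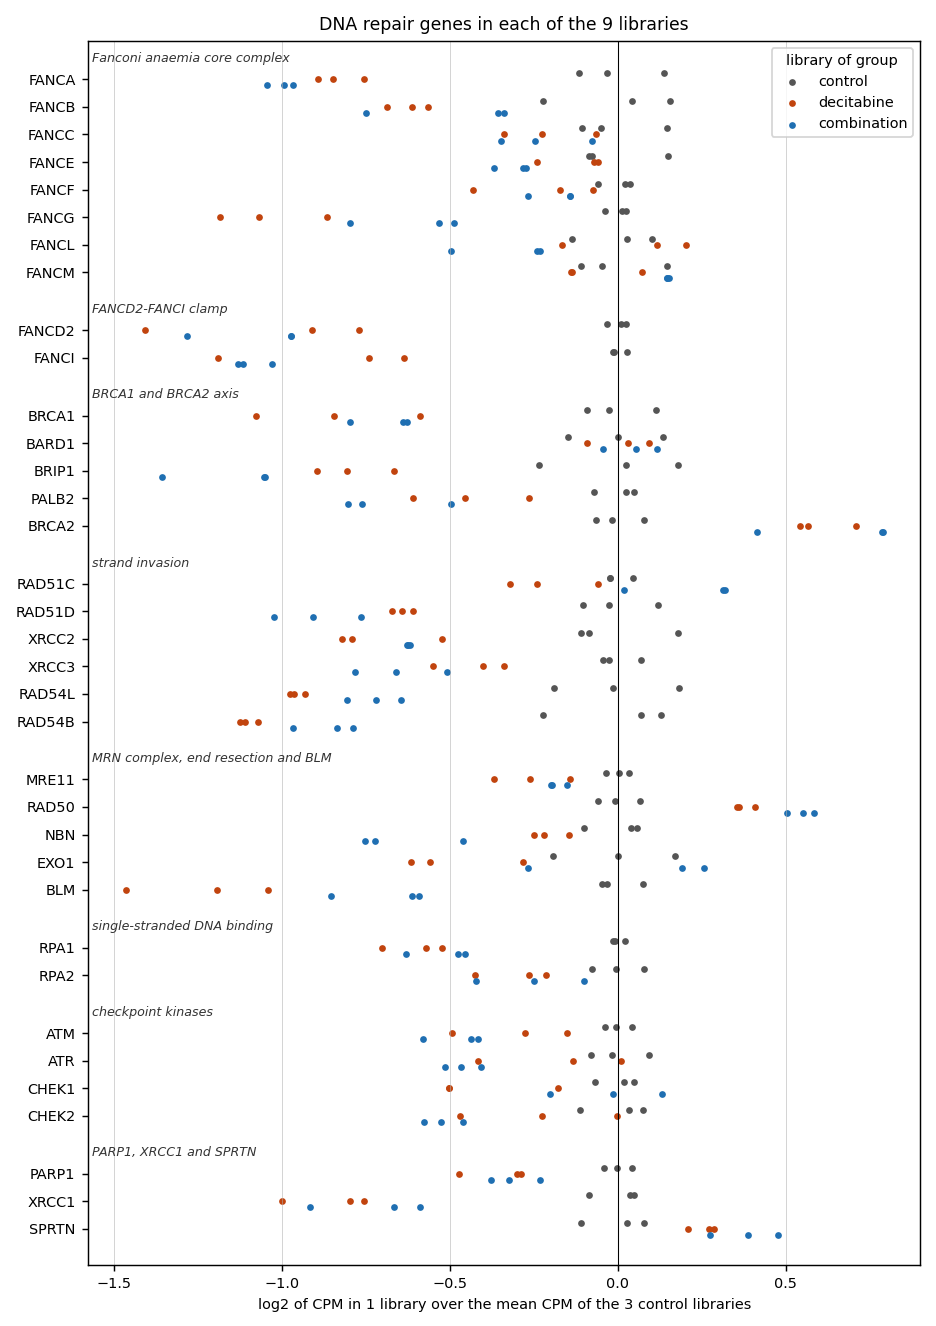
Level of each of the 35 repair genes in the 9 libraries, as log2 of the CPM over the mean of the 3 controls (x axis), grouped by role. Grey points are controls, orange decitabine and blue the combination treatment. Most treated libraries lie left of 0, and those of BRCA2, RAD50 and SPRTN lie right of it.

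The promoter sequences of genes at both ends of this range are shown so that binding sites of cell cycle regulators can be looked up in genes that fell and in genes that rose. RefSeq (GRCh38.p14) gave 40 windows, from 250 bases before to 50 after an annotated start, for 31 of the 35 genes, and FANCI, RPA2, NBN and RAD54B had no entry. Each line holds the 250 bases before the start, 5′ to 3′ on the strand of the gene. Capitals mark matches, on either strand, to an E2F site (TTTCCCGC, TTTGGCGC, TTTCGCGC or TTTGCCGC), a cell cycle homology region (CHR, TTTGAA or TTCGAA) or a CCAAT box (CCAAT). BLM (chr15:90717096-90717345, plus strand), BRIP1 (chr17:61863529-61863778, minus strand), FANCA (chr16:89816648-89816897, minus strand) and FANCG (chr9:35079943-35080192, minus strand) were among the genes that fell most. BRCA2 (chr13:32315258-32315507, plus strand) and SPRTN (chr1:231338043-231338292, plus strand) rose.
BLM: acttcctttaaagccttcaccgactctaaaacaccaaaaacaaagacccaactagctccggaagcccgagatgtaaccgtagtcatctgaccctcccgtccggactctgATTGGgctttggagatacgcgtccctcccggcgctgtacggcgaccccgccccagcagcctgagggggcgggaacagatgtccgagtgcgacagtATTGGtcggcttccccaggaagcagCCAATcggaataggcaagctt
BRIP1: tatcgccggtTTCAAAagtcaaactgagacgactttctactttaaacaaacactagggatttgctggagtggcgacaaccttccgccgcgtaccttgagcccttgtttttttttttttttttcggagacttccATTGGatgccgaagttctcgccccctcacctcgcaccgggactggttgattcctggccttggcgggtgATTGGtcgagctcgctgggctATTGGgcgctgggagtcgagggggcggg
FANCA: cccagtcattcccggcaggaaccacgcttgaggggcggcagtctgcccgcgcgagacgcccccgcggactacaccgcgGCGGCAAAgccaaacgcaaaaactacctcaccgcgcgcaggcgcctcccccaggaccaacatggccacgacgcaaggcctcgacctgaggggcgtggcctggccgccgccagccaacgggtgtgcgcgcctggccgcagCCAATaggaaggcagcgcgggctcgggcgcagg
FANCG: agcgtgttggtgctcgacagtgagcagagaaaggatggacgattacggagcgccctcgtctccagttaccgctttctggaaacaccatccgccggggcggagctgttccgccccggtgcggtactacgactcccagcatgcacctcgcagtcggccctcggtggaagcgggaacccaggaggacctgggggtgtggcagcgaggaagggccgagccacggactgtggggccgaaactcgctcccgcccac
BRCA2: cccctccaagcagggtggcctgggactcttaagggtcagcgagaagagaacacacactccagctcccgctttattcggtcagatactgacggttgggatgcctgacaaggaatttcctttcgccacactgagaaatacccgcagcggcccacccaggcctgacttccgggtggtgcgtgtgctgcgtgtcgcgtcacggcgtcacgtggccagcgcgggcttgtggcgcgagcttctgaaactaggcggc
SPRTN: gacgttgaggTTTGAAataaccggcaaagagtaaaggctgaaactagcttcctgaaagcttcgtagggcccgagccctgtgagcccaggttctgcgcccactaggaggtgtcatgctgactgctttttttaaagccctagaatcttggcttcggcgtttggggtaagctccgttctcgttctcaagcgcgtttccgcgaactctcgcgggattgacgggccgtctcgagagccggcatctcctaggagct

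BLM carried 3 CCAAT boxes, BRIP1 carried 3 and a CHR, FANCA carried 1 and an E2F site, SPRTN carried a CHR only, and no match lay in the printed stretches of FANCG and BRCA2. Over all windows of the repair genes, 47.5% held a CCAAT box, beside 34.6% of the 35116 windows of all promoters in the table. An E2F site was held by 12.5%, beside 3.31%, and a CHR by 12.5%, beside 16.4%. Among windows of protein-coding genes alone, 34.7% held a CCAAT box, 4.10% an E2F site and 13.7% a CHR. By gene, a CCAAT box was found in 12 of the 19 genes with an entry that were downregulated with decitabine, in 3 of the 9 that were not called and in 0 of the 3 that were upregulated. E2F sites were found in 4 of the 19 (FANCA, FANCD2, XRCC2 and EXO1) and in 1 of the 9 (FANCC). A CHR was found in 3 of the 19, in 1 of the 9 and in 1 of the 3. A gene with several windows has more chances of a match, and shares by gene were not counted over all promoters. Windows of a gene with several starts overlap, so they are not independent, and a match is not a binding site. The windows of the repair genes held a median of 27 CpG sites, beside 14 for all promoters and 21 for those of protein-coding genes.

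**Figure D2:**
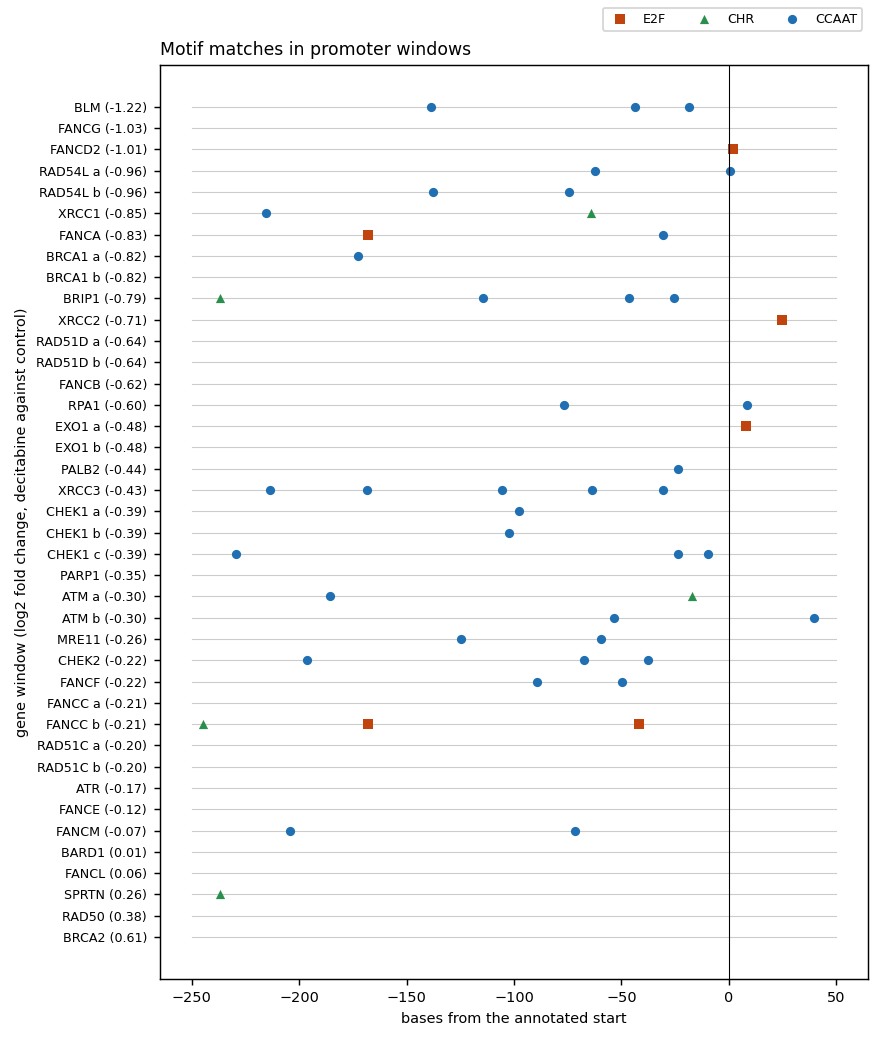
Motif matches in the 40 promoter windows of 31 repair genes, by distance in bases from the annotated start (x axis). Rows are windows, ordered by the log2 fold change of decitabine against control given in parentheses, and letters tell the starts of a gene apart. Squares are E2F sites, triangles CHRs and circles CCAAT boxes. The 3 upregulated genes in the bottom rows hold a single CHR, in SPRTN.

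The Fanconi anaemia core complex is the ubiquitin ligase of the pathway. Of its 8 genes, 3 were downregulated with decitabine (FANCA, FANCB and FANCG) and 4 with the combination treatment (FANCE in addition), and none was upregulated. The share with decitabine, 37.5%, was near the 32.5% of all genes tested, and 31.3% of all genes tested were downregulated with the combination treatment. The median of the 8 was -0.21 with decitabine and -0.31 with the combination treatment. Under size scaling the first turned to 0.03 and the second was -0.09. FANCM, the translocase that brings the complex to DNA, had values of -0.07 and 0.15 under TMM scaling and was not called, and neither were FANCC, FANCF and FANCL, the last being the subunit with the ligase activity.

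FANCG (ENSG00000221829, chromosome 9, 35073835 to 35080004), an adaptor subunit, had 87.5, 83.8 and 86.9 CPM in the controls, 47.2, 41.0 and 37.9 CPM with decitabine and 61.3, 59.5 and 49.5 CPM with the combination treatment. All treated libraries lay below all controls, and those of the combination treatment lay above those of decitabine. The log2 fold change was -1.03 ± 0.10 (SE, adjusted p = 3.2e-07) with decitabine and -0.60 ± 0.09 (adjusted p = 5.8e-05) with the combination treatment. FANCA (ENSG00000187741, chromosome 16, 89726683 to 89816977), a scaffold of the complex, had 57.2, 60.6 and 68.2 CPM in the controls, 36.7, 33.4 and 34.4 CPM with decitabine and 31.1, 30.0 and 31.7 CPM with the combination treatment. The 3 groups did not overlap, and the log2 fold changes were -0.83 ± 0.08 (adjusted p = 5.8e-07) and -1.001 ± 0.08 (adjusted p = 1.0e-07). FANCA shares 2409 exon bases with ZNF276 on the opposite strand. Whether the counting used strand is not given in the sources used here, so reads of the 2 genes may be mixed. FANCB fell by 34.99% and 27.8%. The call of FANCE with the combination treatment (-0.31 ± 0.11, adjusted p = 0.019) was also lost without control replicate 1 and without combination replicate 2.

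FANCD2 and FANCI form the clamp that is ubiquitinated at the lesion, and both were downregulated with both treatments. FANCD2 (ENSG00000144554, chromosome 3, 10026370 to 10101932) had 63.9, 62.0 and 64.5 CPM in the controls, 37.2, 33.7 and 23.9 CPM with decitabine and 32.3, 32.3 and 26.1 CPM with the combination treatment. The controls were close together, and the third library of both treated groups was the lowest. The log2 fold changes were -1.01 ± 0.14 (adjusted p = 3.7e-05) and -1.07 ± 0.14 (adjusted p = 2.4e-05). FANCI (ENSG00000140525, chromosome 15, 89243945 to 89317261) had 98.9, 99.2 and 102 CPM in the controls, 64.3, 59.8 and 43.8 CPM with decitabine and 46.2, 48.9 and 45.6 CPM with the combination treatment. Treated libraries and controls did not overlap, and the decitabine and combination libraries did. It fell by 0.84 ± 0.11 (adjusted p = 1.3e-05) and 1.09 ± 0.11 (adjusted p = 1.3e-06) on the log2 scale.

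Of the 5 genes around BRCA1 and BRCA2, 3 were downregulated with both treatments and BRCA2 was upregulated. BRCA2 (ENSG00000139618, chromosome 13, 32315086 to 32400268), which acts at resected single-stranded DNA, had 15.7, 16.3 and 17.4 CPM in the controls, 26.9, 24.0 and 24.4 CPM with decitabine and 21.9, 28.4 and 28.4 CPM with the combination treatment. Every treated library lay above every control. It rose by 0.61 ± 0.11 (adjusted p = 1.7e-04) on the log2 scale with decitabine and by 0.67 ± 0.11 (adjusted p = 7.1e-05) after the combination treatment, increases of 52.3% and 59.5%. Its call held in all 18 other fits of both comparisons.

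The partners of BRCA2 did not follow it. PALB2, which bridges BRCA1 and BRCA2, fell by 26.1% with decitabine and by 37.6% with the combination treatment. BRCA1, the ubiquitin ligase that acts in end resection, fell by 43.5% and 37.8%. BARD1, the obligate partner of BRCA1, had log2 fold changes of 0.01 ± 0.11 and 0.04 ± 0.11 and was not called. The helicase gene BRIP1 (ENSG00000136492, chromosome 17, 61679139 to 61863559) had 24.1, 28.8 and 32.0 CPM in the controls, 17.8, 16.2 and 15.2 CPM with decitabine and 11.1, 13.6 and 13.7 CPM with the combination treatment. The 3 groups did not overlap. Its log2 fold change of -1.15 ± 0.12 (adjusted p = 1.3e-06) was the lowest of the 35 genes with the combination treatment, and that with decitabine was -0.79 ± 0.12 (adjusted p = 4.0e-05).

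Among RAD51C, RAD51D, XRCC2, XRCC3, RAD54L and RAD54B, which act in strand invasion, 5 of 6 were downregulated with both treatments. RAD54B (ENSG00000197275, chromosome 8, 94371960 to 94475115) had 33.6, 27.4 and 34.95 CPM in the controls, 14.8, 15.2 and 14.7 CPM with decitabine and 18.5, 17.9 and 16.4 CPM with the combination treatment. The groups did not overlap, and the log2 fold changes were -1.10 ± 0.10 (adjusted p = 3.2e-07) and -0.86 ± 0.10 (adjusted p = 3.4e-06). RAD54B shares 3511 exon bases with FSBP on the same strand, and the estimated counts may have been divided between them in any way. The sum of the 2 genes lay between 34.2 and 43.0 CPM in the controls, between 17.7 and 19.7 CPM with decitabine and between 22.1 and 24.6 CPM with the combination treatment. RAD54L fell by 48.5% and 39.4%, RAD51D by 35.9% and 46.2%, XRCC2 by 38.7% and 35.1%, and XRCC3 by 25.7% and 36.1%. XRCC3 shares 5756 exon bases with KLC1 on the opposite strand.

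RAD51C (ENSG00000108384, chromosome 17, 58692573 to 58735611), was the exception. It had 47.2, 47.2 and 49.5 CPM in the controls, 46.0, 40.6 and 38.4 CPM with decitabine and 59.6, 59.9 and 48.6 CPM with the combination treatment. Decitabine libraries lay below the controls, and the third combination library lay among the controls. The log2 fold change was -0.20 ± 0.09 (adjusted p = 0.069) with decitabine and 0.22 ± 0.09 (adjusted p = 0.046) with the combination treatment. The second call was lost with voom and limma, without the filter and without control replicates 1, 2 or 3, decitabine replicate 2 and combination replicates 1 or 2, each left out alone. TEX14, a germ cell gene on the opposite strand whose annotated start lies 518 bases from that of RAD51C, had 0.497 ± 0.181 CPM in the controls, 6.64 ± 1.82 CPM with decitabine and 7.76 ± 1.08 CPM in combination libraries (SD, n = 3), with log2 fold changes of 3.72 and 3.95.

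MRE11, RAD50 and NBN form the MRN complex, which binds broken ends, and its 3 genes changed in different directions. RAD50 (ENSG00000113522, chromosome 5, 132556019 to 132646349), the ATPase that tethers ends, had 40.9, 38.8 and 37.4 CPM in the controls, 49.9, 51.8 and 50.1 CPM with decitabine and 55.3, 57.2 and 58.5 CPM with the combination treatment. The groups did not overlap. Its log2 fold change was 0.38 ± 0.07 (adjusted p = 2.4e-04) with decitabine and 0.55 ± 0.07 (adjusted p = 8.1e-06) with the combination treatment, and both calls held in all 18 other fits. RAD50 shares 8124 exon bases with the annotated gene ENSG00000283782 on the same strand. The latter had between 0 and 6.17 CPM without order among the groups, and the sum of both lay between 38.9 and 44.3 CPM in the controls, 51.0 and 56.1 CPM with decitabine and 57.5 and 58.5 CPM with the combination treatment.

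NBN (ENSG00000104320, chromosome 8, 89924515 to 90003228), which recruits ATM, had 101, 90.6 and 99.7 CPM in the controls, 87.8, 83.4 and 81.6 CPM with decitabine and 58.8, 57.6 and 70.5 CPM with the combination treatment. The 3 groups did not overlap, and the third combination library was the highest of its group. It fell by 0.20 ± 0.08 (adjusted p = 0.041) with decitabine and by 0.64 ± 0.08 (adjusted p = 1.1e-05) with the combination treatment on the log2 scale. The first call depended on the processing: it was lost in 8 of the 18 other fits, among them those without control replicates 1 or 3 and without decitabine replicates 2 or 3, and the value was 0.04 (adjusted p = 0.69) under size scaling. MRE11, the nuclease of the complex, had -0.26 ± 0.07 (adjusted p = 0.0060) and -0.18 ± 0.07 (adjusted p = 0.037). Without control replicates 1 or 3 or combination replicates 2 or 3 and with DESeq2 the second call was lost, and under size scaling the value turned to 0.04 (adjusted p = 0.65).

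BLM and EXO1 act in the long-range resection of ends, and BLM also dissolves joint molecules. BLM (ENSG00000197299, chromosome 15, 90717346 to 90816166) had 16.9, 15.7 and 15.5 CPM in the controls, 7.78, 7.002 and 5.80 CPM with decitabine and 10.6, 10.5 and 8.86 CPM with the combination treatment. The 3 groups did not overlap. Its log2 fold change of -1.22 ± 0.13 (adjusted p = 1.0e-06) was the lowest of the 35 genes with decitabine, and it was -0.68 ± 0.12 (adjusted p = 2.1e-04) with the combination treatment. EXO1 (ENSG00000174371, chromosome 1, 241847967 to 241895148) had 34.7, 39.6 and 44.6 CPM in the controls, 32.6, 26.9 and 25.9 CPM with decitabine and 47.3, 45.3 and 33.0 CPM with the combination treatment. Only the decitabine libraries lay apart from the controls, while the third combination library was lower than every control. EXO1 had a log2 fold change of -0.48 ± 0.14 (adjusted p = 0.010) with decitabine and 0.08 ± 0.14 (adjusted p = 0.64) with the combination treatment.

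RPA1 and RPA2, subunits of the protein that covers single-stranded DNA, were downregulated with both treatments. RPA1 fell by 33.9% and 30.2%. RPA2 fell by 18.7% and 16.1%, and the second call was lost without control replicate 3 and without combination replicate 3.

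Of the kinases that signal breaks and stalled forks, ATM and CHEK1 were downregulated with decitabine, and ATM, ATR and CHEK2 with the combination treatment. ATM, which answers double-strand breaks, fell by 18.8% and 28.1%. ATR, which answers single-stranded DNA, had a log2 fold change of -0.17 ± 0.10 (adjusted p = 0.13) with decitabine and fell by 27.4% with the combination treatment. CHEK2, the target of ATM, had -0.22 ± 0.11 (adjusted p = 0.099) and fell by 30.3%. CHEK1 (ENSG00000149554, chromosome 11, 125625163 to 125676255), the target of ATR, had 48.3, 45.4 and 49.2 CPM in the controls, 42.1, 33.6 and 33.6 CPM with decitabine and 52.1, 47.1 and 41.4 CPM with the combination treatment. Decitabine libraries lay below the controls, and those of the combination treatment spread around them. The log2 fold change was -0.39 ± 0.10 (adjusted p = 0.0041) with decitabine and -0.02 ± 0.10 (adjusted p = 0.86) with the combination treatment.

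PARP1 (ENSG00000143799, chromosome 1, 226360210 to 226408154) had 546, 560 and 578 CPM in the controls, 456, 460 and 405 CPM with decitabine and 448, 478 and 432 CPM with the combination treatment. All treated libraries lay below the controls, and the treated groups overlapped. The log2 fold change was -0.35 ± 0.07 (adjusted p = 6.9e-04) with decitabine and -0.31 ± 0.07 (adjusted p = 0.0019) with the combination treatment. Under size scaling these values were -0.11 and -0.09. XRCC1 fell by 44.4% and 39.2%.

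SPRTN (ENSG00000010072, chromosome 1, 231337104 to 231355023), the protease for DNA-protein adducts, had 21.6, 19.0 and 20.9 CPM in the controls, 25.0, 24.7 and 23.7 CPM with decitabine and 26.8, 28.5 and 24.7 CPM with the combination treatment. Every treated library lay above every control. The log2 fold change was 0.26 ± 0.09 (adjusted p = 0.018) with decitabine and 0.38 ± 0.09 (adjusted p = 0.0014) with the combination treatment. The first call was lost without control replicate 2, decitabine replicate 1 or decitabine replicate 2, each left out alone, and without the filter, and the second held in all 18 other fits. EXOC8, an exocyst gene whose annotated start lies 748 bases from that of SPRTN on the opposite strand, had log2 fold changes of 0.23 and 0.36 (adjusted p = 0.023 and 0.0014). SPRTN shares 749 exon bases with EXOC8, so reads of the 2 genes may be mixed, as the use of strand is not given.

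**Figure D3:**
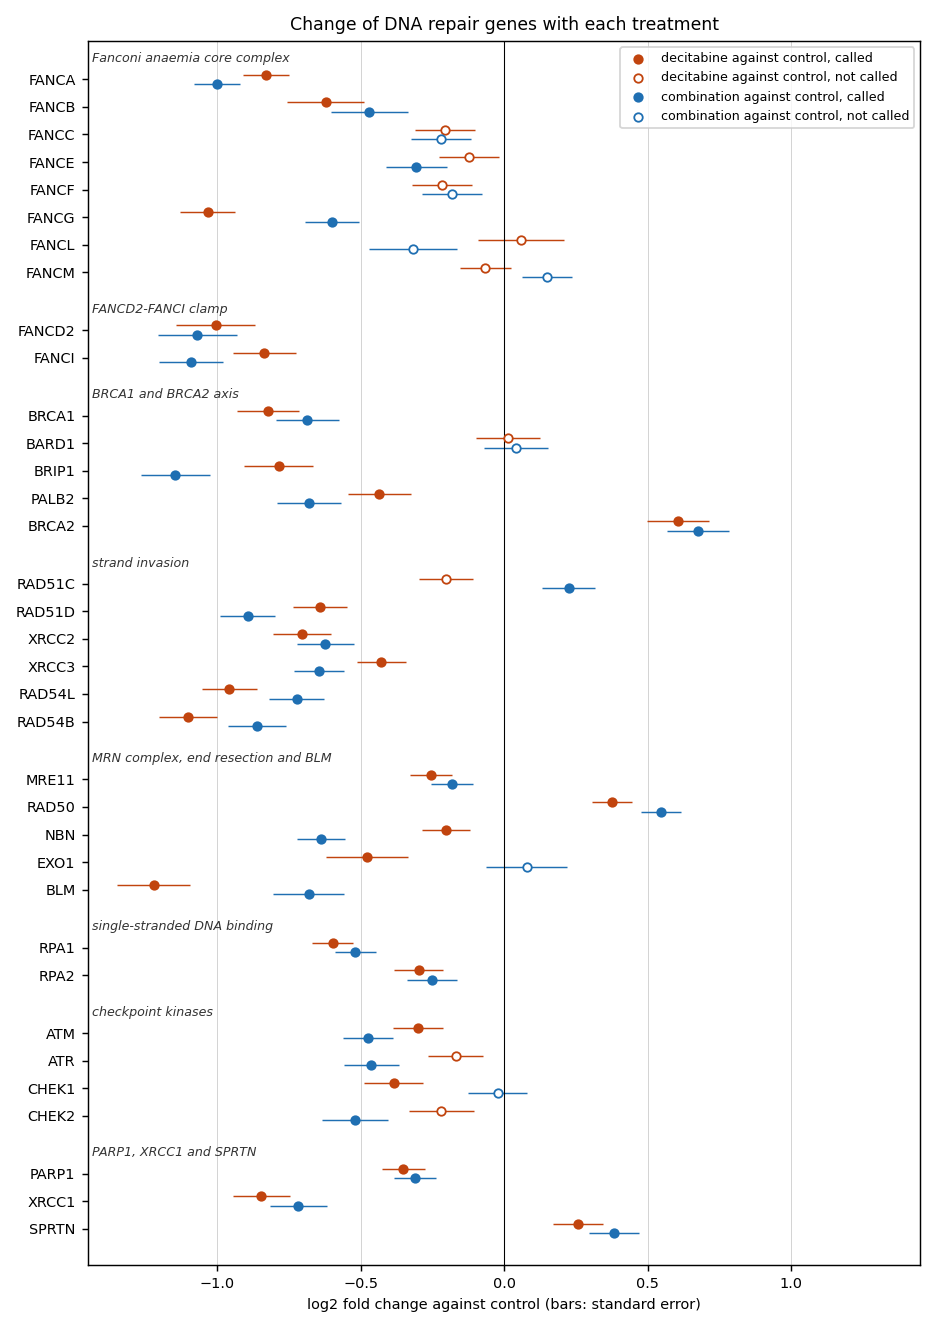
Log2 fold change of the 35 repair genes against control (x axis) with decitabine (orange) and the combination treatment (blue), with standard errors as bars. Filled points were called and open points were not. BLM is farthest left with decitabine and BRIP1 with the combination treatment, and the points of BRCA2, RAD50 and SPRTN lie right of 0.

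The comparison of the combination treatment with decitabine asked what the addition of SAM changed. Few of the repair genes differed: 5 were higher with the combination treatment (EXO1, BLM, FANCG, RAD51C and CHEK1), 1 was lower (NBN) and 29 were not called. Among all genes tested, 7.67% were higher and 8.02% lower. The median of the repair genes was 0.05, beside 0.0021 for all genes tested. Under size scaling 5 were higher and 2 lower.

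EXO1 was higher by 0.56 ± 0.14 (adjusted p = 0.023) on the log2 scale, BLM by 0.54 ± 0.13 (adjusted p = 0.013), FANCG by 0.43 ± 0.10 (adjusted p = 0.0091), RAD51C by 0.43 ± 0.09 (adjusted p = 0.0091) and CHEK1 by 0.36 ± 0.10 (adjusted p = 0.030). In each of these but CHEK1, the 3 combination libraries lay above the 3 decitabine libraries. All 5 calls depended on the libraries included: without decitabine replicate 2 or without combination replicate 2, 0 of them were called. In these fits, 6 and 5 repair genes were higher at an unadjusted p under 0.05 in edgeR's quasi-likelihood test. The share of all genes tested at that threshold was not counted, so nothing is drawn from these numbers. With single libraries left out, log2 fold changes lay at 0.45 to 0.70 in EXO1 and 0.43 to 0.64 in BLM. They lay at 0.36 to 0.53 in FANCG, 0.37 to 0.52 in RAD51C and 0.28 to 0.48 in CHEK1. DESeq2 and voom with limma, run with all libraries, each called 5. Without combination replicate 1, 2 were called, and without decitabine replicate 3, 3 were. That of CHEK1 was also lost when only the 6 libraries compared were fitted. NBN was lower by 0.44 ± 0.08 (adjusted p = 0.0050), and its call held in all 18 other fits. When both treated libraries numbered 3 were left out, an alternative chosen after the data were seen, 5 were higher and 6 lower. BRIP1, FANCL, FANCI, ATM and ATR joined NBN, with main log2 fold changes of -0.36, -0.38, -0.26, -0.18 and -0.29.

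**Figure D4:**
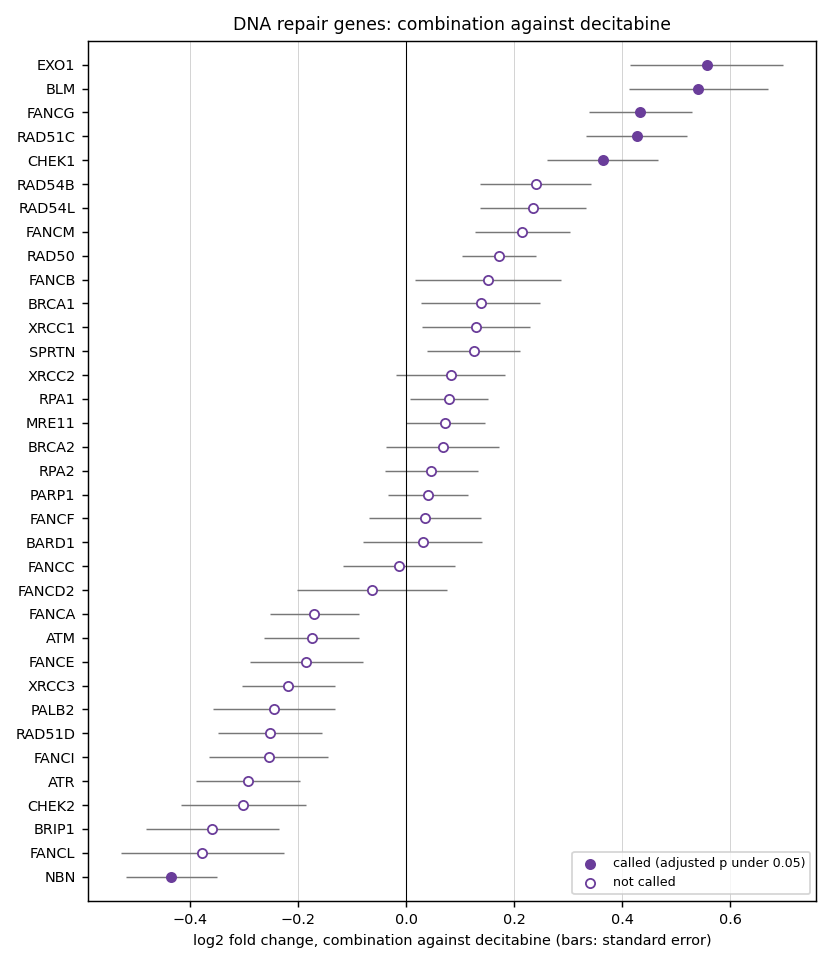
Log2 fold change of the combination treatment against decitabine (x axis) for the 35 repair genes in order of size, with standard errors as bars. Filled points were called. The 5 filled points on the right are EXO1, BLM, FANCG, RAD51C and CHEK1, and that on the left is NBN.

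Libraries within a group differed in the level of the repair genes as a whole. Their summed level was 2119 to 2244 CPM in the controls, 1478 to 1725 CPM with decitabine and 1576 to 1692 CPM with the combination treatment. Decitabine replicate 3 was the lowest of its group in 27 of the 35 genes (77.1%), beside 37.3% of all genes tested, and combination replicate 3 in 19 (54.3%), beside 39.3%. Control replicate 3 was the highest of its group in 23 (65.7%), beside 33.6% of all genes tested. The median coefficient of variation of the repair genes was 5.86% over the control libraries, 8.57% over those of decitabine and 7.06% over those of the combination treatment, with the highest values in BRIP1 (14.1%), FANCD2 (21.8%) and EXO1 (18.6%). Without both treated libraries numbered 3, 23 repair genes were downregulated and 3 upregulated with decitabine, the same numbers as with all libraries.

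Most of a list of 35 cell cycle genes were also downregulated, though the list and the repair genes differed between the treatments. Of the cell cycle genes, 32 were downregulated with decitabine and 24 with the combination treatment, with medians of -0.82 and -0.47 (-0.57 and -0.25 under size scaling). The downregulated share was 91.4% and 68.6%, beside 32.5% and 31.3% of all genes tested. In the combination libraries, 14 were higher than in the decitabine libraries and none was lower, with a median of 0.28, where the repair genes had 5 higher, 1 lower and a median of 0.05. Their lowest decitabine library was replicate 3 in 27 of 35 genes and their lowest combination library was replicate 3 in 31. Their highest control library was replicate 3 in 31. The part of the cell cycle genes in the changes of the repair genes was not tested.

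Per kilobase of annotated exons, which corrects for length, the level in the controls was highest in RPA2 (65.7 ± 3.49 CPM per kb, SD, n = 3), PARP1 (30.5 ± 0.876), RPA1 (28.8 ± 0.359), FANCG (15.5) and XRCC1 (14.3), and lowest in BARD1 (1.502), BRIP1 (1.44), FANCC (1.38), BRCA2 (1.14), FANCB (1.06) and FANCL (0.155). The exons of all annotated transcripts were counted, which lowers the value of genes with long rare transcripts such as FANCL.

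Other genes of these pathways were taken from lists given by function. Of 21 further Fanconi anaemia and crosslink nuclease genes, 12 were downregulated with decitabine and 1 upregulated, and 10 and 3 with the combination treatment. The downregulated share was 57.1% and 47.6%, beside 32.5% and 31.3% of all genes tested. Under size scaling, 6 were downregulated and 6 upregulated with decitabine, and 7 and 6 with the combination treatment. UBE2T, the ubiquitin-conjugating enzyme of FANCL (log2 fold change -1.06), the translesion polymerase gene REV1 (-0.95) and CENPX (-0.83), a partner of FANCM, fell most with decitabine, and ERCC1, of the XPF nuclease, rose (0.39). Of 26 further homologous recombination genes, 13 were downregulated and 1 upregulated with decitabine, and 14 and 2 with the combination treatment. These counts depended on the scaling. By library size alone, 9 were downregulated and 6 upregulated with decitabine, and 8 and 6 with the combination treatment. The helicase gene RTEL1 had 86.3, 82.7 and 85.0 CPM in the controls, 29.3, 28.3 and 26.8 CPM with decitabine and 26.1, 24.8 and 21.3 CPM with the combination treatment. Its treated libraries lay far below the controls, at log2 fold changes of -1.59 ± 0.08 (adjusted p = 1.3e-09) and -1.81 ± 0.08 (adjusted p = 4.2e-10), lower than that of any of the 35 repair genes. The nuclease gene DNA2 (-1.14) and FIGNL1 (-1.03) also fell with decitabine, and RMI2, a partner of BLM, rose (0.34).

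Of 23 other checkpoint and break signalling genes, 10 were downregulated with decitabine and 3 upregulated, and 6 and 4 with the combination treatment. The downregulated share was 43.5% and 26.1%, beside 32.5% and 31.3% of all genes tested. With decitabine, BABAM1 (-0.88), BABAM2 (-0.73) and BRCC3 (-0.67), subunits of the BRCA1-A complex, fell. ABRAXAS1 of the same complex (0.37), the ubiquitin ligase RNF8 (0.67) and HUS1 of the checkpoint clamp (0.53) rose. The rise of ABRAXAS1, at 4.75 to 7.89 CPM over all libraries, was near the threshold (adjusted p = 0.047). It was not called with the combination treatment (0.05, adjusted p = 0.80), whereas RNF8 (0.98) and HUS1 (0.91) were. The median of this list was -0.17 and -0.02 with the 2 treatments and turned to 0.08 and 0.20 under size scaling. Of 12 end joining genes, 6 and 8 were downregulated and none upregulated, with LIG3 (-1.03), PRKDC (-0.93) and PAXX (-0.79) lowest with decitabine. Under size scaling, 1 of the 12 was upregulated with each treatment.

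Of 16 single-strand break and base excision repair genes, 7 were downregulated with decitabine and 2 upregulated, and 6 and 4 with the combination treatment. The downregulated share was 43.8% and 37.5%, beside the same 32.5% and 31.3%. LIG1 (-1.13), which seals replicated and repaired strands, APEX1 (-0.75) and PARP2 (-0.74) fell, whereas POLB (0.67) and the glycosylase gene NEIL1 (1.33) rose, the latter from at most 0.642 CPM in the controls. The list's medians of -0.18 and -0.0029 became 0.07 and 0.22 under size scaling.

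Of 15 genes of DNA-protein adduct repair that were tested, 9 were downregulated with decitabine and 3 upregulated, and 8 and 3 with the combination treatment. The downregulated share was 60.0% and 53.3%, beside 32.5% and 31.3% of all genes tested. Under size scaling, 7 were downregulated and 5 upregulated with decitabine, and 6 and 5 with the combination treatment. DNMT1, the enzyme that decitabine traps, had 371, 405 and 437 CPM in the controls, 259, 233 and 198 CPM with decitabine and 242, 250 and 220 CPM with the combination treatment. Treated libraries lay below the controls, at log2 fold changes of -0.81 ± 0.10 (adjusted p = 4.0e-06) and -0.77 ± 0.10 (adjusted p = 7.2e-06). The phosphodiesterase gene TDP1 (-0.94) also fell with decitabine. GCNA, which is related to SPRTN and known from germ cells, had 1.34, 3.50 and 3.06 CPM in the controls, 32.2, 33.1 and 33.0 CPM with decitabine and 42.1, 42.9 and 35.9 CPM with the combination treatment. Its treated libraries lay far above the controls, at log2 fold changes of 3.63 ± 0.21 (adjusted p = 4.2e-08) and 3.93 ± 0.21 (adjusted p = 2.2e-08). FAM111A, another protease for adducts, rose by 1.02 ± 0.14 with decitabine and the SUMO-targeted ubiquitin ligase gene RNF4 by 0.41 ± 0.06, both on the log2 scale. Under size scaling, the called directions of the genes named from these 6 lists in decitabine against control were kept.

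**Figure D5:**
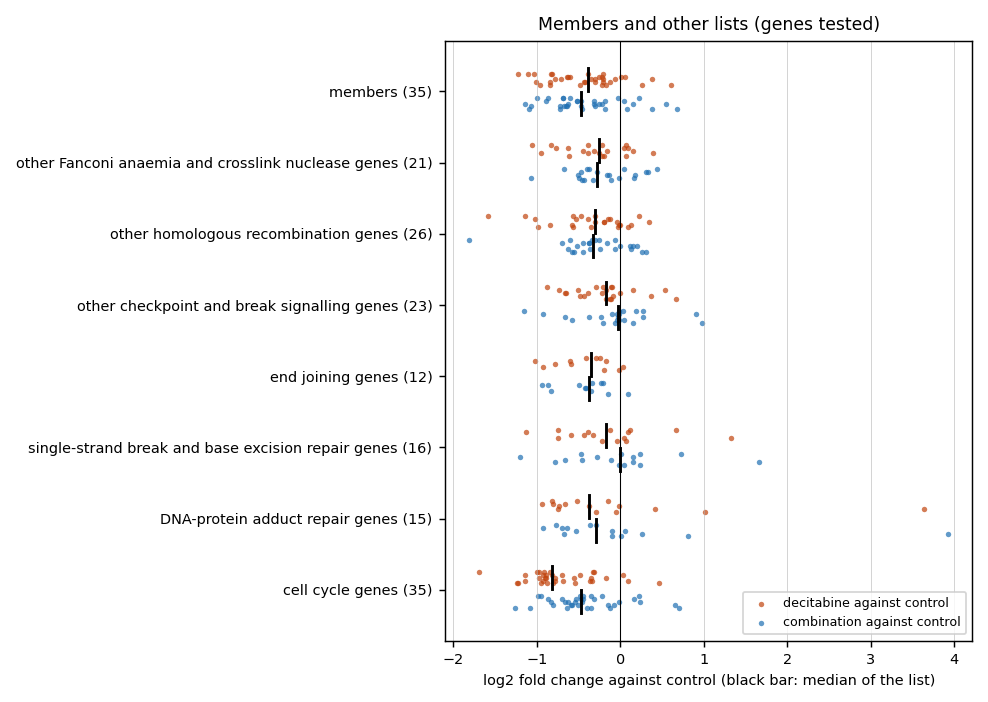
Log2 fold change against control (x axis) of the 35 repair genes, of 6 lists of related repair genes and of 35 cell cycle genes, with the number tested in parentheses. Each point is a gene (orange decitabine, blue combination treatment) and black bars are medians. The bar of the repair genes lies at -0.39 with decitabine, that of the cell cycle genes at -0.82, and GCNA is the point beyond 3.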

How the data were processed

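RNA-seq of 9 PC-3 libraries was analysed in 3 groups taken from the sample labels, with doses and the vehicle from the study's methods. The authors trimmed reads with Trim Galore and quantified them with kallisto. The deposited estimated counts, 1 value per Ensembl gene (GRCh38.p13 per the labels), were not normalized. Their annotation release and the use of strand are not given in the sources used here. The log2 CPM files deposited with them were not used.

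Of 60617 identifiers, 60357 matched GENCODE release 44. Counts were rounded, filtered with filterByExpr (18532 genes kept), scaled by TMM and fitted over all 9 libraries with edgeR 4.0.16 (quasi-likelihood test, robust dispersion, no term for the replicate number) in R 4.3.3. Benjamini-Hochberg adjustment ran over all genes tested, at a threshold of 0.05. No libraries were copies of each other.

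The members and lists were chosen with earlier results of these data known. Every member was accounted for, with all libraries given for the 4 largest called changes per direction against control, up to 6 called members per direction between the treatments, and SPRTN and PARP1. Of other lists, at most 3 called genes per direction with decitabine were named, and DNMT1. A gene that this rule would name is not reported here. RTEL1 and GCNA were given in full after their values were seen, as were the neighbours TEX14 and EXOC8. Other neighbours with a start within 1000 bases did not all move with their repair gene. With decitabine, MOSPD2 (-0.48) fell beside FANCB (-0.62). NBR1 (0.08) did not follow BRCA1 (-0.82), and ZFYVE21 (0.23) rose beside XRCC3 (-0.43).

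Alternatives were DESeq2 1.42.0, its size factors in edgeR, scaling by library size, voom with limma 3.58.1, another filter (a mean of at least 10 counts) or none, fits of 6 libraries, a block for the replicate number, an adjusted p under 0.01, an absolute log2 fold change over 1, and each library left out. Both treated libraries numbered 3 were left out together after the data were seen.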

Additional observations from a re-analysis of the deposited data

How the results depend on the processing

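Of the 35 repair genes, 22 to 27 were downregulated and 2 or 3 upregulated with decitabine when single libraries were left out, and 22 to 25 and 3 or 4 with the combination treatment. The median log2 fold change then lay between -0.48 and -0.33 with decitabine and between -0.53 and -0.47 with the combination treatment. With library size as the only scaling, 14 were downregulated with decitabine, the medians were -0.14 and -0.25, and 2 values reversed, to 0.042 in NBN with decitabine and 0.038 in MRE11 with the combination treatment. Over an absolute log2 fold change of 1, 4 genes were lower and 0 higher with each treatment, and 0 and 0 differed between the treatments.

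Between the treatments, 0 to 5 repair genes were higher and 1 to 4 lower when single libraries were left out. The lower count was 2 with DESeq2's size factors and with library size alone, 3 with DESeq2, 4 without the filter and 6 without both treated libraries numbered 3. At an adjusted p under 0.01, 2 were higher. With the replicate number as a block, 2 were lower and 5 higher, and 25 and 24 were downregulated with decitabine and the combination treatment. Deviations of same-numbered libraries from their group means correlated at -0.044 to 0.322. Between decitabine and combination libraries the values were 0.322, 0.054 and 0.318 for replicates 1, 2 and 3. The labels do not say whether same-numbered libraries were paired, and these values do not settle it. The causes of these changes were not tested. Values of genes called neither in the main fit nor in the alternative changed sign 36 times.

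The limits are 3 libraries per group, overlapping annotated genes (24 of the 35 share at least 100 exon bases with another gene, 8 of them on the same strand) and a scaling that assumes most genes are unchanged. FANCL, at 4.18 to 6.79 CPM, had a standard error of 0.15 on the log2 scale in each comparison, the largest of the 35 genes.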
